A study of Mus musculus with 14 samples.

Results

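The 42 genes described here are the heat shock and unfolded protein response genes of the mouse: molecular chaperones and the sensors, transcription factors and effectors that adjust chaperone supply to the load of unfolded protein. They were chosen by symbol from the count tables of a study of the transcription factor Lhx2 in the cerebral cortex, 42 of 25229 symbols in one table and the same 42 of 55353 in the other. By place of action, 20 are cytosolic, 3 mitochondrial and 19 belong to the endoplasmic reticulum, where secreted and membrane proteins fold. RNA with poly(A) tails was sequenced from layer II/III microdissected at postnatal day 5 and dissociated with trypsin, in 14 libraries that form 4 groups. Every group carried the floxed alleles Lhx2lox/lox. In the progenitor experiment, in utero electroporation at E15.5 delivered either a plasmid for EGFP (control, 4 libraries) or one for Cre-EGFP (labelled mutant, 4 libraries). In the postmitotic experiment the EGFP plasmid went into Lhx2lox/lox embryos (control, 3 libraries) or Lhx2lox/lox embryos that also carried NexCre/+ (labelled mutant, 3 libraries). NexCre makes Cre from the Neurod6 locus, active in young excitatory neurons. An electroporated plasmid reaches only some of the neurons in such tissue.

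Cells hold a standing stock of chaperones and can raise it. In the cytosol, unfolded proteins occupy Hsp70 and Hsp90 and release the heat shock factor Hsf1, which binds heat shock elements in the promoters of chaperone genes. In the endoplasmic reticulum, unfolded proteins occupy the chaperone BiP (Hspa5) and free the sensors Ern1 (IRE1), Eif2ak3 (PERK) and Atf6, whose signals run through spliced Xbp1, Atf4 and cleaved Atf6 to chaperones, disulfide isomerases and the machinery of degradation. Counts per gene do not separate spliced from unspliced Xbp1 RNA, nor active from inactive sensor protein.

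The progenitor libraries held 22677019 to 29497595 counts, and every control (at least 24947089) was deeper than every library labelled mutant (at most 24002981), while the postmitotic libraries held 21605777 to 25891416. Lhx2 itself, the targeted gene, was not lower in the libraries labelled mutant: its log2 fold change was 0.02 in the progenitor experiment (mean 127 CPM, counts scaled to library size, in control and 129.5 CPM in labelled mutant) and 0.29 in the postmitotic one (147 and 179 CPM). In the postmitotic experiment it was called higher (edgeR quasi-likelihood F test, adjusted p = 0.0276), at 143 to 150 CPM in control and 171 to 184 CPM in labelled mutant libraries. The counts cover the whole gene, so reads from exons outside a deletion are included, and the groups are called by their labels throughout. Summed CPM of Y-linked genes were at most 0.0381 in all 4 progenitor controls and in mutant 1, but 99.4 to 170.4 in progenitor mutants 2, 3 and 4; mutant 3 also had 554 CPM of Xist, which is made from an inactive X. Y-linked counts in the postmitotic experiment were found in controls 1 and 2 and mutant 3 (134 to 166 CPM) and were near 0 in control 3 and mutants 1 and 2. Of 12 astrocyte markers, 5 were lower and 0 higher in the progenitor labelled mutant libraries, with summed levels of 3838 to 4662 CPM in control and 3212 to 3738 CPM in labelled mutant. Of 10 mural cell markers, 5 were higher and 0 lower, with sums of 226 to 354 and 327 to 424 CPM. Microglia markers had 2 lower of 12 (167 to 251 and 143 to 193 CPM), interneuron markers 2 lower of 10 (499 to 639 and 508 to 609 CPM) and progenitor markers 3 higher of 9 (661 to 925 and 876 to 1039 CPM). Of 14 excitatory neuron markers, the labelled cell type, 3 were higher and 3 lower (8383 to 9164 and 8028 to 8549 CPM). No marker of these lists had a mean of 0. The labels do not say which libraries came from separate animals, so p-values measure only the spread between these libraries, which may be technical. In bulk RNA, fewer cells of a type and less RNA per cell cannot be told apart.

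In control libraries the members ranged widely in level once CPM were divided by exon length. The cytosolic chaperone Hsp90ab1 had the highest mean level in both experiments, 601 CPM per kb in progenitor and 618 CPM per kb in postmitotic controls. In the progenitor controls it was followed by Hsp90aa1, its inducible relative, at 238 CPM per kb and by the constitutive Hsp70, Hspa8, at 215 CPM per kb, whose libraries overlapped once scaled by length. The most abundant endoplasmic reticulum member was the lectin chaperone Calr, at 179 CPM per kb. At the other end, Trib3, an inhibitor of Atf4 signalling, had 0.348 CPM per kb, Hspb2 0.773, Hspa1a 0.961, the sensor Ern1 1.01, Hspb8 1.03 and Hspb1 1.09. Part of the sequence of Hspa8, Hsp90aa1, Hspb1, Hspd1, Hspe1 and Dnaja1 is shared with copies elsewhere in the genome (11.6% to 55.4% of windows of 150 bases), so their levels are uncertain. Hsp90b1, Pdia3, Pdia6, Herpud1, Manf, Ddit3, Dnaja1, Hspa1a, Dnajb9 and Eif2ak3 overlap an annotated gene on the opposite strand. Cryab and Hspb2 overlap each other in this way, as do Hspd1 and Hspe1. Reads of such pairs may not be told apart. The 2 tables were counted separately, and levels were not tested between them.

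**Figure D1:**
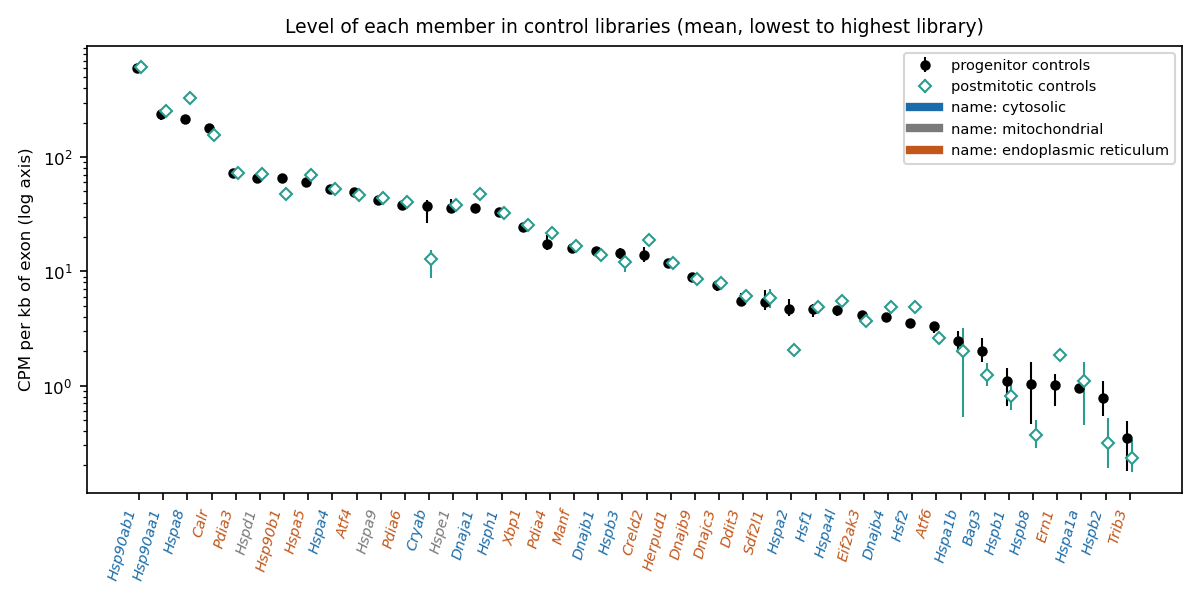
Mean level of each member in the control libraries, as CPM per kb of exon on a log axis, with bars from the lowest to the highest library: black circles are the 4 progenitor controls and green diamonds the 3 postmitotic controls, and gene names are coloured by place of action. The order runs from Hsp90ab1 at 601 to Trib3 at 0.348 CPM per kb in the progenitor controls, and the widest bars belong to low genes such as Hspa1a, Hspa1b and Hspb8.

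Promoter sequence was searched for exact forms of the classical stress elements near the start of each member. RefSeq's table (GRCm38.p6; 250 bases before to 50 bases after each start) held 33 of the 42 members and 32851 promoters in all; Cryab, Hspb2, Hspa8, Hsp90aa1, Hsp90ab1, Hsf1, Hspa9, Manf and Atf6 had no entry. Both strands were searched for the letters given below, with no mismatch allowed. A member without a match may therefore still hold a variant of an element. The endoplasmic reticulum stress response element, in which CCAAT and CCACG stand 9 bases apart, was in 6 of 17 endoplasmic reticulum members with a promoter (Hspa5, Hsp90b1, Calr, Dnajc3, Pdia6 and Creld2), in 0 of 16 other members and in 0.119% of all promoters. Its shorter variant, ATTGG and CCACG with 1 base between them, was in Herpud1 and in 0.0365% of all promoters. Herpud1 and Trib3 held TGATGNAA, a C/EBP-ATF element bound by Atf4 and its partners, which was in 3.97% of all promoters. A heat shock element (GAA, TTC and GAA, each 2 bases apart) was in Hsph1, Hspd1 and Hspe1 and in 0.603% of all promoters. TGACGTGG, the unfolded protein response element, was in 0 of 33 members and in 0.676% of all promoters. In no member did a match of one element overlap a match of another. A match describes letters, not binding. The stretches around most of the matches are shown. Among these genes, Hspa5, Dnajc3, Pdia6 and Creld2 were called lower in a postmitotic fit without mutant 3, described further on. Hsp90b1, Calr, Herpud1 and Hspe1 were not called there, while Sdf2l1 and Pdia4, without a match, were. Whether the elements play a part was not tested. In the stretches, capitals mark the matches, and each stretch reads 5′ to 3′ on the gene's strand. They lie at chr2:34772020-34772049 (Hspa5, plus strand), chr10:86705510-86705694 (Hsp90b1, minus), chr8:84847035-84847133 (Calr, minus), chr14:118937787-118937885 (Dnajc3, plus), chr12:17266451-17266544 (Pdia6, plus), chr15:88819480-88819578 (Creld2, plus), chr8:94386277-94386427 (Herpud1, plus) and chr1:55088053-55088082 (Hspe1, plus), before the RefSeq start of each gene. The stretches of Hspa5 and Hspe1 are limited to 30 bases because another annotated transcript already covers them. In Hsp90b1 the element occurs once on each strand. The Hspe1 stretch lies inside the divergently transcribed Hspd1, in an annotated exon, and holds 2 overlapping heat shock elements. In Herpud1 the first capitals are the C/EBP-ATF element and the second the shorter variant.
Hspa5: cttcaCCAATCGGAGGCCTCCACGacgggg
Hsp90b1: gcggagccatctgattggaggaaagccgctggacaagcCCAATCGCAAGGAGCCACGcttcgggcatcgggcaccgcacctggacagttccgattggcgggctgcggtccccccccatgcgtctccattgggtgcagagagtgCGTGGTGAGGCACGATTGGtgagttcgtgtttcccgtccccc
Calr: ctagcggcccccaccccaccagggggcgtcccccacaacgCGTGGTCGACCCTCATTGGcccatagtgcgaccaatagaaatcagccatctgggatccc
Dnajc3: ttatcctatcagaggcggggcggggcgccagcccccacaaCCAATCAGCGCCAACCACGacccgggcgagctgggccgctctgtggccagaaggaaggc
Pdia6: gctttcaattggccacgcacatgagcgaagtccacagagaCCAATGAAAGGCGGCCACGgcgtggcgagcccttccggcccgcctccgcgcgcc
Creld2: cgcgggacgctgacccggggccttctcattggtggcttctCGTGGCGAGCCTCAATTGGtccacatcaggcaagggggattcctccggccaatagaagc
Herpud1: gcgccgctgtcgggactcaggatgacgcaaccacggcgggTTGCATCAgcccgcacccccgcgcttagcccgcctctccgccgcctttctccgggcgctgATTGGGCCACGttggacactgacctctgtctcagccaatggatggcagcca
Hspe1: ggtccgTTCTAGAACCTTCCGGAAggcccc

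The progenitor comparison asks how chaperone genes stood at postnatal day 5 after Cre was given to progenitors. The small heat shock protein Cryab fell by 69.1%, the inducible Hsp70 Hspa1b fell by 65.7% and the Hsp70 relative Hspa2 fell by 50.5%, while the abundant Hspa8, Hsp90aa1 and Hsp90ab1 did not pass the test. In the endoplasmic reticulum the transcription factors Xbp1 and Atf4, the effector Herpud1 and the chaperone Dnajb9 fell, while the chaperone Hsp90b1, Pdia3 and the sensor Ern1 rose. Calls rest on the quasi-likelihood F test of edgeR with p-values adjusted by Benjamini-Hochberg over all 15295 tested genes and a threshold of 0.05, written below as the edgeR adjusted p. All 42 members were tested; 9 were lower and 4 higher, where 11.4% of all tested genes were lower and 12% higher, 23.4% in all. Among 20 cytosolic members 5 were lower and 1 higher (median log2 fold change -0.06). Among 19 endoplasmic reticulum members 4 were lower and 3 higher (median 0.06). The 3 mitochondrial members gave 0 calls with edgeR, DESeq2 or limma-voom and 0 unadjusted p under 0.05 with edgeR. The median over all tested genes was 0.00. The CPM of the groups did not overlap for 10 members lower and 4 higher, where 13.3% and 13.7% of all tested genes stood so.

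**Figure D2:**
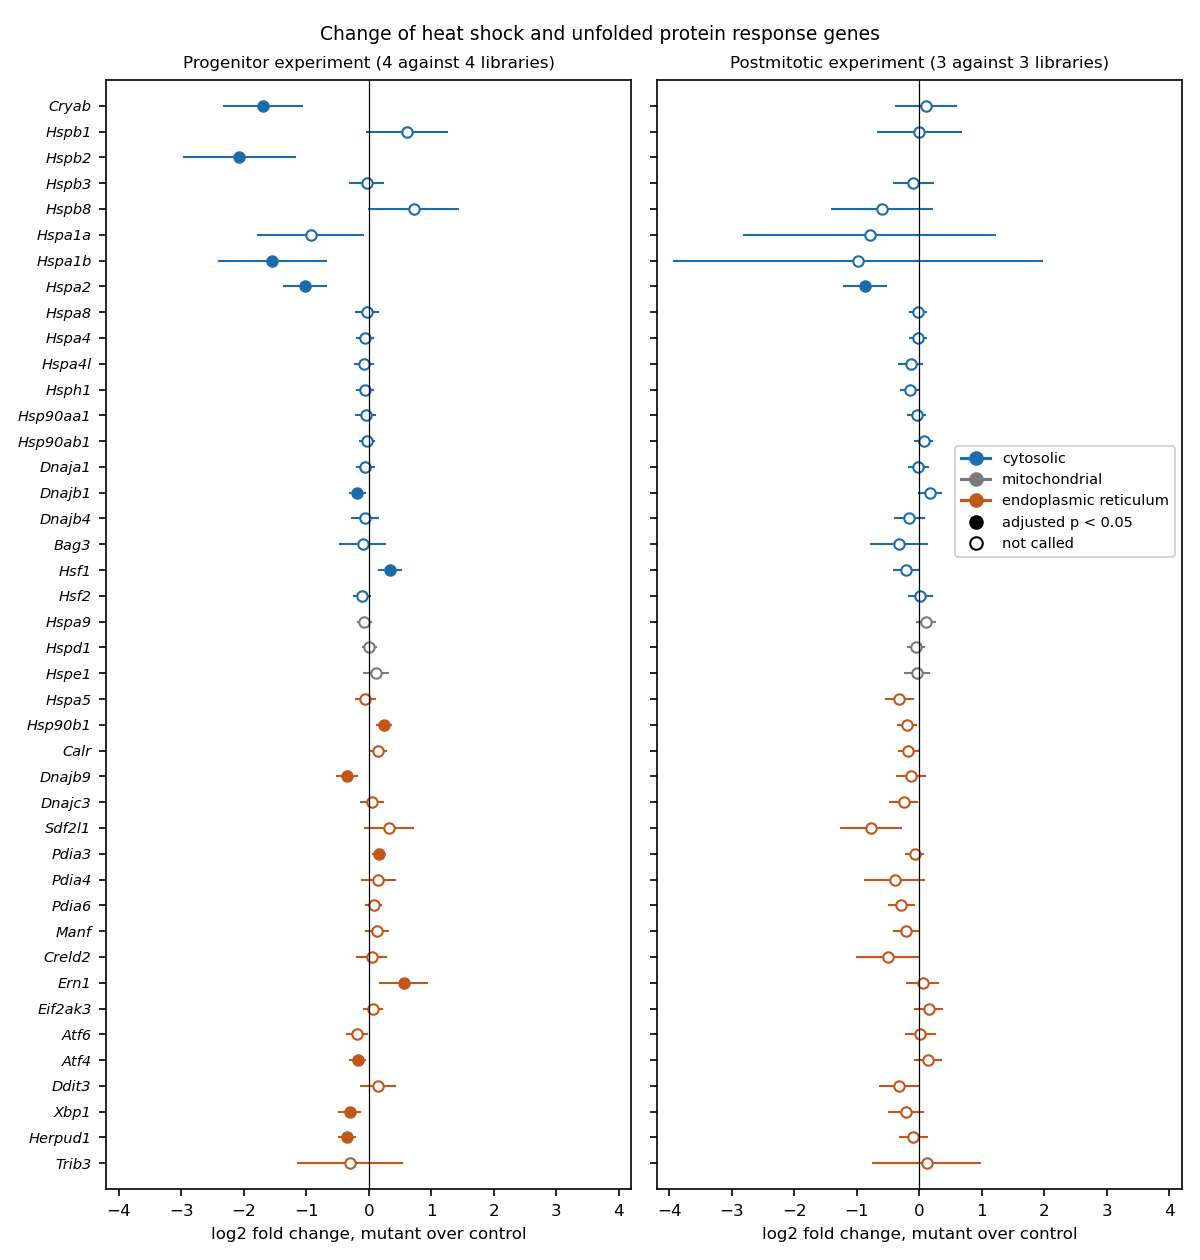
Log2 fold change of each member, labelled mutant over control, with 95% intervals from edgeR's quasi-likelihood fit: left the progenitor experiment (4 against 4 libraries), right the postmitotic one (3 against 3). Filled points passed an adjusted p of 0.05 and open ones did not; 13 points are filled on the left and 1, Hspa2, on the right, where Hspb2 was not tested.

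The small heat shock proteins are chaperones without an ATPase that hold unfolded proteins in solution. Cryab (alpha-B crystallin, chr9:50751325-50756636, GRCm38) had 62.5, 56.5, 39.0 and 61.8 CPM in progenitor controls 1 to 4 and 11.9, 14.8, 14.9 and 26.3 CPM in mutants 1 to 4. Every control lay above every library labelled mutant, and mutant 4 was the highest of its group. Cryab fell by 69.1%, a log2 fold change of -1.69 ± 0.27 (SE, n = 4 per group; edgeR adjusted p = 0.00454). Hspb2, a muscle-rich relative that lies head to head with Cryab and overlaps it on the opposite strand, had 12, 24, 12 and 21 counts in the controls and 4, 3, 2 and 5 counts in the libraries labelled mutant. Its log2 fold change was -2.07 ± 0.41 (edgeR adjusted p = 0.0045), but it passed the filter on low counts only through the controls, so its call is no support for the others. It was not stated whether counting used the strand, so reads of Cryab and Hspb2 may not be told apart where they overlap. Cryab is also made by glia. Of the 12 astrocyte markers, 5 were called lower in the same libraries. The largest fall was that of Gfap, the astrocyte filament protein, at means of 177 CPM in control and 75.6 CPM in labelled mutant (log2 fold change -1.23). Another 4 were above 0 and not called by edgeR: Aldh1l1 (0.34), Sox9 (0.24), Aqp4 (0.18) and Slc1a3 (0.01). The part of astrocytes in the Cryab result was not tested. Oligodendrocyte lineage markers gave 3 higher and 0 lower of 12, with sums of 568 to 685 CPM in control and 595 to 749.7 CPM in labelled mutant. The other small heat shock proteins did not pass the test: Hspb8, partner of Bag3 in selective autophagy, stood at 2.01 ± 0.916 and 3.33 ± 0.948 CPM (SD), Hspb1 at 1.12 ± 0.334 and 1.72 ± 0.578 CPM, and Hspb3 at 11.2 ± 0.996 and 10.9 ± 1.77 CPM in control and labelled mutant.

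The Hsp70 family binds exposed hydrophobic stretches in cycles of ATP hydrolysis. Hspa2 (chr12:76404176-76406938), a family member best known from the testis, had 11.3, 12.3, 10.8 and 15.0 CPM in the controls and 5.00, 5.13, 6.68 and 7.65 CPM in the libraries labelled mutant. The groups did not overlap, and Hspa2 fell by 50.5% (log2 fold change -1.01 ± 0.15, SE, n = 4 per group; edgeR adjusted p = 0.00117). Hspa1b (chr17:34956436-34959238), one of the pair of Hsp70 genes that heat induces most, had 7.08, 6.90, 5.36 and 8.39 CPM in the controls and 3.22, 3.45, 2.16 and 0.692 CPM in the libraries labelled mutant. The lowest control stood above the highest library labelled mutant, and mutant 4 was the lowest of all. Hspa1b fell by 65.7% (log2 fold change -1.54 ± 0.38; edgeR adjusted p = 0.019). Its neighbour Hspa1a had 2.69, 3.05, 2.95 and 2.72 CPM in the controls and 2.57, 1.98, 0.913 and 0.519 CPM in the libraries labelled mutant, groups that also did not overlap, but it missed the threshold (log2 fold change -0.93 ± 0.38; edgeR adjusted p = 0.101). Both genes share 39.7% (Hspa1a) and 40.5% (Hspa1b) of their windows of 150 bases with each other or with Hspa1l, so how their reads were divided is uncertain. Their sum removes the division within the pair but not that with Hspa1l, which was called higher (log2 fold change 0.64). The sum was 9.77, 9.96, 8.31 and 11.1 CPM in controls 1 to 4 and 5.79, 5.43, 3.07 and 1.21 CPM in mutants 1 to 4, again without overlap. The abundant members did not pass: Hspa8 had a 95% interval of -0.20 to 0.15 on the log2 scale, Hspa4 -0.18 to 0.06, Hspa4l -0.22 to 0.07 and Hsph1, an exchange factor for Hsp70, -0.19 to 0.07.

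Among Hsp90, its co-chaperones and the heat shock factors, Dnajb1 fell and Hsf1 rose. The intervals of Hsp90aa1 and Hsp90ab1 were -0.20 to 0.10 and -0.14 to 0.09 on the log2 scale. Dnajb1 (Hsp40), which delivers clients to Hsp70, had 50.3, 47.0, 46.6 and 50.2 CPM in the controls and 40.6, 41.6, 43.9 and 44.6 CPM in the libraries labelled mutant. These groups did not overlap, and Dnajb1 fell by 12.1% (log2 fold change -0.19 ± 0.05; edgeR adjusted p = 0.0301). Dnaja1, Dnajb4 and Bag3 had log2 fold changes of -0.06 ± 0.06, -0.05 ± 0.09 and -0.10 ± 0.17 and did not pass. Hsf1 (chr15:76477422-76501913), the main activator of the heat shock response, had 35.1, 31.9, 36.5 and 28.3 CPM in the controls and 41.2, 41.6, 44.6 and 38.9 CPM in the libraries labelled mutant. All libraries labelled mutant lay above all controls, and Hsf1 RNA rose by 26.3% (log2 fold change 0.34 ± 0.08; edgeR adjusted p = 0.0119). Hsf2, its partner, did not pass (-0.11 ± 0.06). The mitochondrial chaperones Hspa9 (mortalin), Hspd1 (Hsp60) and Hspe1 (Hsp10) had intervals of -0.18 to 0.04, -0.09 to 0.11 and -0.08 to 0.31.

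In the endoplasmic reticulum, the folding factors Hsp90b1 and Pdia3 rose. Hsp90b1 (GRP94, chr10:86690209-86705509), the Hsp90 of this compartment, had 261, 264, 278 and 252 CPM in the controls and 327, 309, 314 and 294 CPM in the libraries labelled mutant. The groups did not overlap, and Hsp90b1 rose by 18.0% (log2 fold change 0.24 ± 0.05; edgeR adjusted p = 0.00742). Pdia3 (ERp57), the disulfide isomerase that works with calreticulin, had 229.5, 225, 229 and 223 CPM in the controls and 254, 262, 251 and 245 CPM in the libraries labelled mutant. Its groups were separate too, and it rose by 11.7% (log2 fold change 0.16 ± 0.04; edgeR adjusted p = 0.0217). Calr, its partner, did not pass (0.15 ± 0.06; edgeR adjusted p = 0.0968), with controls at 548, 492, 545 and 480.2 CPM and libraries labelled mutant at 601, 564, 581 and 541 CPM. Hspa5 (BiP), the Hsp70 of this compartment and the usual readout of the unfolded protein response, had 248, 245, 279.8 and 251 CPM in the controls and 264, 258, 248 and 217 CPM in the libraries labelled mutant. Its groups overlapped, and its 95% interval was -0.20 to 0.10 on the log2 scale. Dnajc3, Sdf2l1, Pdia4, Pdia6, Manf and Creld2, which assist folding or are secreted under stress, had log2 fold changes from 0.05 to 0.33 and did not pass.

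The 4 lower calls of the compartment were Xbp1, Atf4, Herpud1 and Dnajb9, and the sensor Ern1 was higher. Dnajb9 is itself a chaperone, so the 6 chaperones of the compartment held 1 higher call (Hsp90b1) and 1 lower one. Ern1, the sensor that splices Xbp1 RNA, had 5.37, 10.4, 9.33 and 7.77 CPM in the controls and 10.9, 12.2, 12.6 and 12.7 CPM in the libraries labelled mutant. The highest control stood just under the lowest library labelled mutant, and Ern1 rose by 47.0% (log2 fold change 0.56 ± 0.17; edgeR adjusted p = 0.0361). Xbp1, its target, had 82.8, 77.6, 83.6 and 71.5 CPM in the controls and 65.5, 69.8, 64.0 and 55.7 CPM in the libraries labelled mutant, separate groups. It fell by 19.1% (log2 fold change -0.31 ± 0.07; edgeR adjusted p = 0.013). Herpud1, which gathers the degradation complex at the membrane and has the shorter stress element shown above, had 28.9, 28.0, 26.7 and 26.1 CPM in the controls and 20.8, 21.6, 22.6 and 20.9 CPM in the libraries labelled mutant. Here too no library crossed between the groups, and Herpud1 fell by 21.6% (log2 fold change -0.35 ± 0.06; edgeR adjusted p = 0.00237). Dnajb9 (ERdj4), a co-chaperone of BiP that represses Ern1, had 22.8, 21.7, 23.5 and 22.8 CPM in the controls and 16.1, 18.2, 17.6 and 19.6 CPM in the libraries labelled mutant. It fell by 21.3% without overlap (log2 fold change -0.35 ± 0.07; edgeR adjusted p = 0.00644). Atf4, the transcription factor whose translation rises when Eif2ak3 is active, had 128, 109.6, 119 and 113 CPM in the controls and 101, 103, 104 and 107 CPM in the libraries labelled mutant. The margin between its groups was narrow, and Atf4 RNA fell by 11.5% (log2 fold change -0.18 ± 0.05; edgeR adjusted p = 0.0363). Eif2ak3 (0.06 ± 0.06), Atf6 (-0.19 ± 0.08), the pro-apoptotic factor Ddit3 (CHOP, 0.15 ± 0.12) and Trib3 (-0.30 ± 0.38) did not pass.

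**Figure D3:**
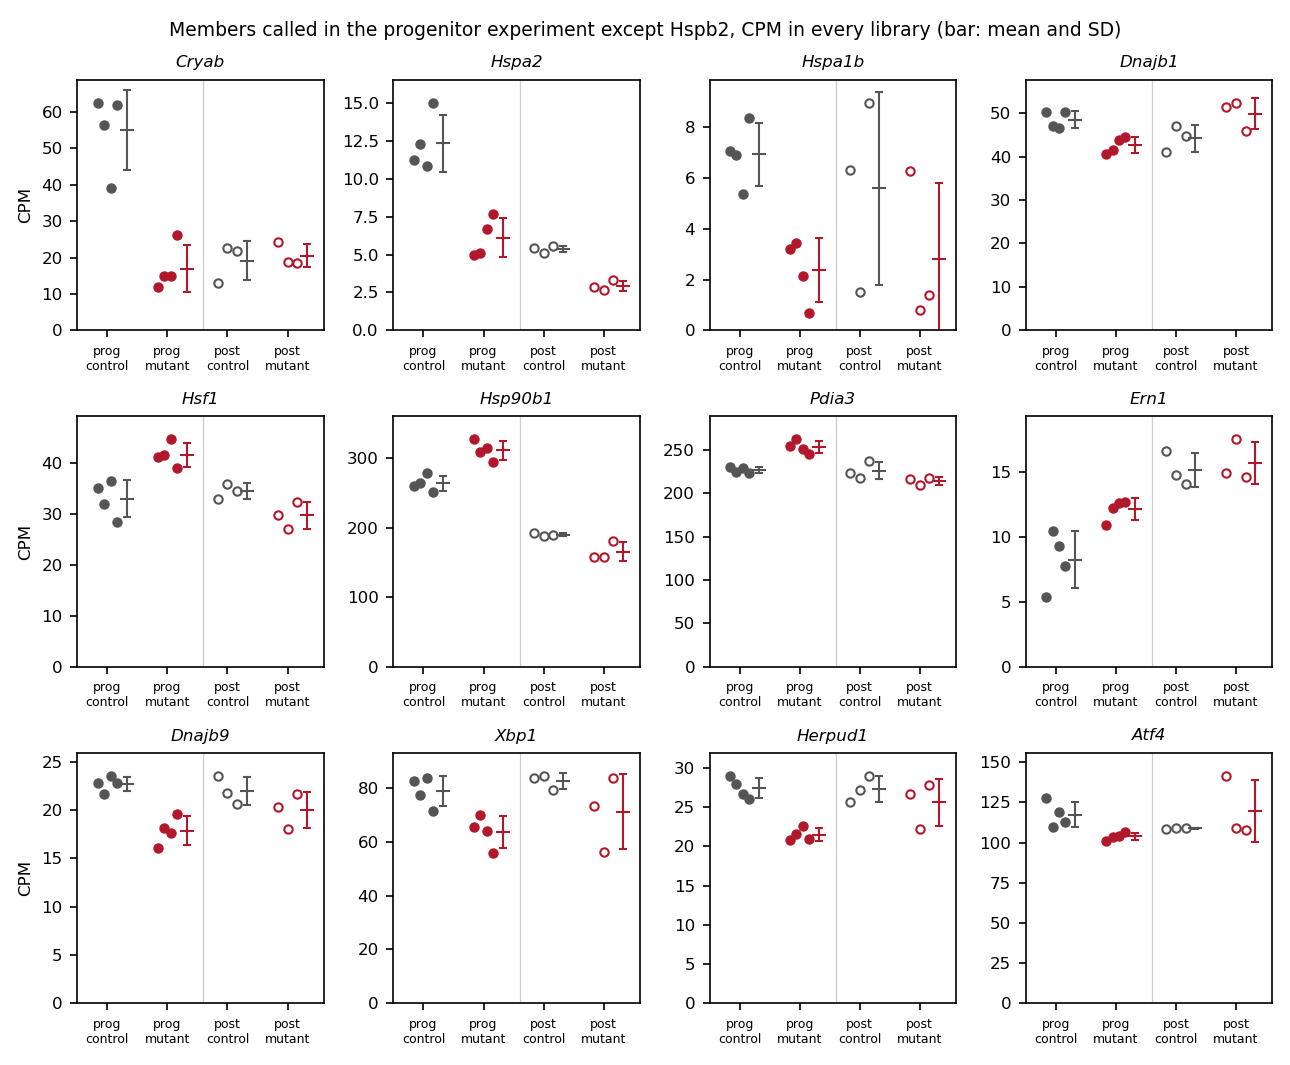
CPM in every library for 12 of the 13 members called in the progenitor experiment (Hspb2, with 2 to 24 counts per library, is left out); filled circles are progenitor and open circles postmitotic libraries, grey control and red labelled mutant, with the group mean and SD beside them, each axis starting at 0 (which clips the lower SD arm of Hspa1b in postmitotic mutants). Progenitor groups are separate in all 12 panels, while among the postmitotic groups only Hspa2, Hsf1, Hsp90b1 and Pdia3 are separate.

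Leaving out 1 library in turn ended the calls of Hspa1b (without control 4 or mutant 3), Dnajb1 (control 1 or 4, mutant 1, 2 or 3), Pdia3 (control 4, mutant 1, 2 or 3), Ern1 (control 4 or any mutant) and Atf4 (any library but control 2), with edgeR adjusted p up to 0.0572, 0.1, 0.062, 0.0916 and 0.103; without control 4 or mutant 1, 2 or 3 only 2 members were higher. With the Y-linked CPM of each library as a covariate, added because these counts go with the label in 7 of the 8 libraries, Cryab, Hspa2 and Dnajb9 were lower and Hsp90b1 higher. The other 9 lost the call with the same direction and a larger SE: Hspb2 had -1.94 ± 0.72, Herpud1 -0.39 ± 0.11 (edgeR adjusted p = 0.0532), Hsf1 0.34 ± 0.13, Pdia3 0.16 ± 0.07, Atf4 -0.21 ± 0.09, Dnajb1 -0.26 ± 0.09, Xbp1 -0.26 ± 0.12, Hspa1b -1.09 ± 0.60 and Ern1 0.40 ± 0.27 on the log2 scale.

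The postmitotic comparison asks the same of cortices in which Cre acts in neurons that have left the cycle. Hspa2 fell again, by 45.2%, and it was the only member called. Most endoplasmic reticulum members were lower in mutants 1 and 2, while mutant 3 stood near the controls. Of 41 members tested (Hspb2 did not pass the filter on low counts), 1 was lower and 0 higher by edgeR, where 1.06% of all tested genes were lower and 0.895% higher. At an unadjusted p under 0.05 edgeR gave 12 lower and 0 higher. DESeq2 called 3 lower (Hspa2, Hspa5 and Sdf2l1) and 0 higher, and limma-voom 1 and 0. For these counts the share of all tested genes was not worked out, and the shares just given do not apply to them. The groups did not overlap for 8 members lower (Hspa2, Hsph1, Hsf1, Hspa5, Hsp90b1, Sdf2l1, Pdia3 and Ddit3) and 0 higher, where 8.43% and 7.98% of all tested genes stood so. Median log2 fold changes were -0.20 over 19 endoplasmic reticulum members, 14 of them below 0, -0.10 over 19 cytosolic members and -0.04 over the 3 mitochondrial ones, and 0.00 over all tested genes. Hspa2 had 5.44, 5.13 and 5.55 CPM in controls 1 to 3 and 2.86, 2.67 and 3.30 CPM in mutants 1 to 3. No library crossed between the groups, and Hspa2 fell by 45.2% (log2 fold change -0.87 ± 0.16, SE, n = 3 per group; edgeR adjusted p = 0.0103), and the call held with any 1 library left out.

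The inducible pair Hspa1a and Hspa1b varied widely within the postmitotic groups. Their summed level was 9.92, 2.84 and 13.8 CPM in controls 1 to 3 and 9.93, 1.65 and 2.42 CPM in mutants 1 to 3. Control 2 thus lay with the low libraries labelled mutant, and the 95% interval of Hspa1b ran over -3.93 to 1.97 on the log2 scale, wide enough to hold the progenitor value. Cryab had 13.1, 22.7 and 21.7 CPM in the controls and 24.3, 18.9 and 18.5 CPM in the libraries labelled mutant, overlapping groups. Astrocyte markers gave 0 calls of 12 here by edgeR (7 lower at an unadjusted p under 0.05; DESeq2 called 1, limma-voom 0), with sums of 1810 to 2058 CPM in control and 1647 to 1888 CPM in labelled mutant. The 95% intervals of the abundant cytosolic chaperones included 0: Hspa8 -0.16 to 0.10, Hsp90aa1 -0.18 to 0.09 and Hsp90ab1 -0.07 to 0.21. Hsf1 had 32.9, 36.0 and 34.5 CPM in the controls and 29.7, 27.1 and 32.3 CPM in the libraries labelled mutant; the groups were separate, but the gene did not pass (-0.21 ± 0.09; edgeR adjusted p = 0.366).

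The 19 endoplasmic reticulum members summed to 1785, 1806 and 1823 CPM in postmitotic controls 1 to 3 and to 1548, 1471 and 1753 CPM in mutants 1 to 3. Mutant 1 was below every control for 15 of the 19, mutant 2 for 14 and mutant 3 for 6. The share of all tested genes below every control in each library was not worked out, so these counts have no background. Hspa5 (BiP, chr2:34771970-34777547, GRCm38) had 300.3, 292 and 288 CPM in the controls and 214, 209.5 and 281 CPM in the libraries labelled mutant. Mutants 1 and 2 lay far below the controls and mutant 3 just below them. Sdf2l1, which helps BiP keep its clients soluble, had 5.28, 7.70 and 6.43 CPM in the controls and 3.78, 2.60 and 5.01 CPM in the libraries labelled mutant, mutant 3 again the nearest to control. Pdia4 (ERp72) had 52.3, 54.9 and 49.7 CPM in the controls and 36.2, 30.04 and 53.2 CPM in the libraries labelled mutant. Creld2, a secreted disulfide isomerase induced by stress in this compartment, had 24.2, 26.4 and 26.4 CPM in the controls and 16.7, 12.9 and 24.8 CPM in the libraries labelled mutant. In both genes mutants 1 and 2 were below every control and mutant 3 was within the controls' range. Pdia6 had 141, 152 and 157 CPM in the controls and 114, 111 and 144 CPM in the libraries labelled mutant. Dnajc3 (P58IPK), a co-chaperone of BiP that also restrains Eif2ak3, had 42.5, 40.7 and 38.9 CPM in the controls and 31.2, 31.4 and 39.99 CPM in the libraries labelled mutant. Both repeat the pattern of mutant 3 within the control range. With all 6 libraries and the filter on low counts, the edgeR adjusted p were 0.183 (Hspa5), 0.137 (Sdf2l1), 0.535 (Pdia4), 0.42 (Creld2), 0.208 (Pdia6) and 0.337 (Dnajc3), so none passed. Other fits of the same 6 libraries called some of them. With edgeR on every gene with a count, Creld2 (adjusted p = 0.00137), Sdf2l1 (0.00138), Hspa5 (0.00429) and Pdia6 (0.0108) were called beside Hspa2. DESeq2 called Hspa5 (0.0424) and Sdf2l1 (0.0451) beside Hspa2. The edgeR fit on every gene also keeps genes with almost no counts. Its SE were smaller than those of DESeq2 for Creld2 (0.11 against 0.17) and Pdia4 (0.11 against 0.25), although mutant 3 stood apart. Its calls are therefore no added support. The sensors upstream in the pathway had log2 fold changes above 0 that did not pass. Ern1 had 16.6, 14.7 and 14.1 CPM in the controls and 14.9, 17.5 and 14.6 CPM in the libraries labelled mutant, Eif2ak3 a log2 fold change of 0.15 ± 0.10 and Atf6 one of 0.02 ± 0.11. Atf4 was at 108, 109 and 109 CPM in the controls and 142, 109 and 108 CPM in the libraries labelled mutant, with mutant 1 far above every control and the others level with them.

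**Figure D4:**
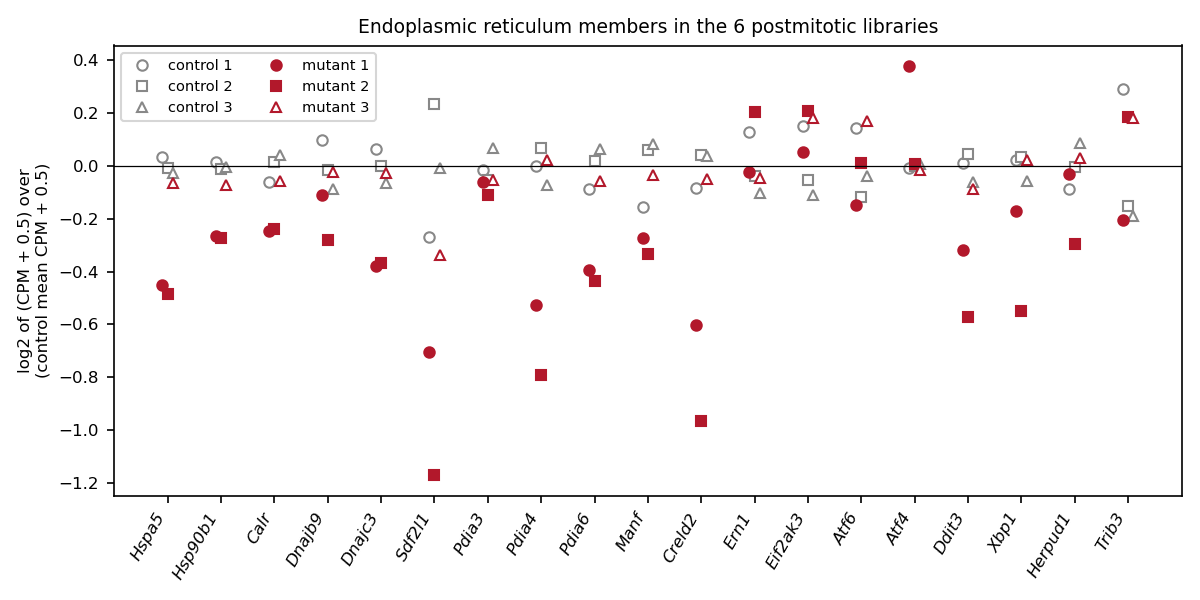
Each endoplasmic reticulum member in the 6 postmitotic libraries, as the log2 ratio of its CPM to the control mean after adding 0.5 CPM to both: grey open symbols are controls, filled red symbols mutants 1 and 2, and open red triangles mutant 3. Mutants 1 and 2 lie below every control for 15 and 14 of the 19 genes and mutant 3 for 6, and Sdf2l1, Creld2 and Pdia4 lie lowest. The share of all tested genes below every control in each library was not worked out.

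Because mutant 3 stands apart, the comparison was also made without it, a choice made after seeing the data. With every library, edgeR called 0 of the 19 endoplasmic reticulum members. The fit without mutant 3 was chosen on these same members, so its calls describe mutants 1 and 2 and are no support for a change. In that fit 7 members fell and 0 rose, where 1.52% of all tested genes were lower and 1.05% higher: Hspa2 (log2 fold change -0.96) and 6 of the 19 endoplasmic reticulum members. The latter were Sdf2l1 (-1.02 ± 0.21), Creld2 (-0.79 ± 0.13), Pdia4 (-0.66 ± 0.10), Hspa5 (-0.47 ± 0.07), Pdia6 (-0.42 ± 0.07) and Dnajc3 (-0.38 ± 0.09; SE, 3 against 2 libraries, edgeR adjusted p between 0.002 and 0.034). Hsp90b1 and Calr had -0.27 and -0.24 and did not pass. Of the 6 called, Hspa5, Dnajc3, Pdia6 and Creld2 carry the endoplasmic reticulum stress response element shown above, while Sdf2l1 and Pdia4 have a promoter entry and no exact match. Of all 19 members of this compartment, with or without a match, 16 were below 0. Of 20 other folding genes of this compartment, 2 fell in the same fit, the BiP exchange factor Hyou1 and the oxidase Ero1lb. Glial markers were below 0 in the same fit: 12 of 12 astrocyte markers (median -0.22, Aqp4 called lower) and 11 of 12 oligodendrocyte lineage markers (median -0.22, 0 called), beside a median of -0.27 over the endoplasmic reticulum members, and Fabp7, of the progenitor markers, was called lower. Their part in the result was not tested. Mutant 3 and controls 1 and 2 have Y-linked counts and mutants 1 and 2 and control 3 do not, and the part of this was not tested either. With libraries 1 and 2 of each group alone, 4 members were lower: Creld2, Hspa2, Hspa5 and Pdia4. The share of all tested genes called in that fit was not worked out.

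The difference between the experiments was tested as the interaction of experiment and label over all 14 libraries and the symbols in both tables. It was called for 8 of 42 members, 3 above 0 (Hspb2 among them, which passed the filter through the progenitor controls and is no support) and 5 below 0, where 6.94% of 15643 tested genes were called, 3.1% above 0 and 3.84% below. A value above 0 means that the postmitotic log2 fold change was the higher one. Cryab differed by 1.80 ± 0.39 (edgeR adjusted p = 0.0209), from -1.69 ± 0.27 in the progenitor to 0.10 ± 0.21 in postmitotic libraries. Hspb2 differed by 2.73 ± 0.65 on 2 to 24 counts per progenitor library (edgeR adjusted p = 0.0189) and Dnajb1 by 0.36 ± 0.09 (edgeR adjusted p = 0.0282). Hsf1 differed by -0.55 ± 0.12 (edgeR adjusted p = 0.0125), from 0.34 ± 0.08 to -0.21 ± 0.09. The endoplasmic reticulum chaperone Hsp90b1 differed by -0.44 ± 0.08 (edgeR adjusted p = 0.00519), from 0.24 ± 0.05 to -0.20 ± 0.07, on postmitotic levels of 192, 189 and 189 CPM in the controls and 158, 157 and 181 CPM in the libraries labelled mutant. Calr (-0.33 ± 0.09, edgeR adjusted p = 0.0393), Sdf2l1 (-1.10 ± 0.31, edgeR adjusted p = 0.0394) and Pdia3 (-0.23 ± 0.07, edgeR adjusted p = 0.0435) differed in the same direction. Hsf1 and Hsp90b1 stayed called with any 1 library left out. The other 6 calls were each lost in at least 1 such fit (those of Cryab and Hspb2 without postmitotic mutant 1, and that of Hspb2 also without postmitotic control 1), and the count ranged from 2 (without postmitotic mutant 1) to 13 (without postmitotic mutant 3). Hspa2, lower in both experiments, had a difference of 0.15 ± 0.23 with a 95% interval of -0.34 to 0.63, and Hspa1b one of -1.72 to 2.84.

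Other genes of the same pathways were called in both directions. In the progenitor experiment, 2 of 40 other cytosolic chaperones rose (Ahsa2, a relative of the Hsp90 activator Ahsa1, by 0.41 on the log2 scale, and Hspa1l by 0.64) and 3 fell (Hspa12a, Hsbp1 and Hspbp1). Hspa1l shares sequence with Hspa1a and Hspa1b, so its reads may not be told apart from theirs. Of 10 other mitochondrial chaperones and proteases, 1 fell (Dnaja3, -0.27). Of 19 other endoplasmic reticulum folding genes, 3 fell (the reductase Dnajc10, Ero1lb and Txndc5, between -0.36 and -0.17) and 0 rose. Of 18 genes of endoplasmic reticulum-associated degradation, 2 rose (Vcp, the ATPase that pulls proteins from the membrane, by 0.60, and Edem2) and 3 fell (Erlec1, Ube2j1 and Ufd1). Of 27 genes of the integrated stress response, 2 rose (Vegfa and the amino acid sensor Eif2ak4) and 4 fell; the Atf4 targets Asns (-0.36) and Sesn2 (-0.51) and the Atf4 partner Cebpb (-0.71) were among the latter. Of 10 genes of the Atf6 and Creb3 branch, 0 were called by edgeR or limma-voom and 1 by DESeq2, with 1 unadjusted p under 0.05 in edgeR. These shares stand beside the 12% higher and 11.4% lower of all tested genes. In the postmitotic experiment the 6 lists gave 0 edgeR calls, beside 1.96% of all tested genes. At an unadjusted p under 0.05 edgeR gave 7 of 124 genes, while DESeq2 called 1 higher and 1 lower and limma-voom 0. The share of all tested genes was not worked out for these other counts. Immediate-early genes, which dissociation of tissue can switch on, gave 1 higher (Nr4a1) and 1 lower (Ier3) of 18 in progenitor libraries and 1 higher (Fosl2) in postmitotic ones, with sums of 422 to 463 and 382 to 524 CPM, and of 281 to 309.6 and 304 to 374 CPM, in control and labelled mutant. Their part in the results above was not tested.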

How the data were processed

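Per the labels, polyA RNA of microdissected layer II/III cortex was prepared with a directional kit and read as pairs of 150 bases. The authors deposited whole-number read counts per gene symbol in 1 table per experiment. The submitters' processing notes name HISAT2, featureCounts, DESeq2 and mm10; their versions, the annotation and the use of strand were not given in the sources used here. DESeq2 results, also deposited per experiment, hold, per the file headers, a mean normalised count (signal), log2 fold change, Wald statistic (a score), p-value and adjusted p-value. Missing values there had become 0, also inside symbols, and were restored for the members or treated as missing. No column was left unassigned (0).

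Counts were tested per experiment with edgeR 4.0.16 in R 4.3.3 (filterByExpr, TMM, glmQLFit with the robust option, glmQLFTest, Benjamini-Hochberg over all tested genes). SE is the log2 fold change divided by the square root of F; 95% intervals use the t distribution. CPM use TMM-scaled library sizes. Replicates differed beyond sampling noise (chi-square over its degrees of freedom, 6.73 to 20.7), and no library was merged with another. Alternatives were DESeq2 1.42.0, limma-voom (limma 3.58.1), other scalings and filters, no robust step, a replicate block, a Y-linked covariate, postmitotic libraries 1 and 2 alone and each library left out; reading the postmitotic result by compartment and over the whole table without mutant 3 was added after seeing the data. The procedure was tested on simulated data. Positions and exon lengths are from GENCODE M21 (GRCm38), promoters from RefSeq (GRCm38.p6). The members and all lists were chosen with earlier results of these data known. Named with each library's value are members called in an experiment or in the difference, and role-mates, at most 25; of other lists, at most 3 per direction with the smallest p, others being named only by symbol.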

Additional observations from a re-analysis of the deposited data

Results flagged for a closer look

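Of 84 groups of 4 libraries checked (42 members in each progenitor group), 3 held 1 library whose distance from the rest exceeded Dixon's critical value at the 95% level, which chance does in about 1 in 20 groups. Hsf2 was at 35.74 CPM in progenitor control 2 and between 33.2 and 33.4 CPM in the other controls. Hspa5 was at 279.8 CPM in progenitor control 3 and between 245 and 251 CPM in the other controls. Manf was at 53.21 CPM in progenitor mutant 4 and between 63.3 and 65.1 CPM in the other libraries labelled mutant.

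The test of the difference between the experiments (edgeR, quasi-likelihood F test, Benjamini-Hochberg adjusted) picked out 8 members, given here as the postmitotic minus the progenitor log2 fold change. They were Cryab at 1.80, Hspb2 at 2.73, Dnajb1 at 0.36, Hsf1 at -0.55, Hsp90b1 at -0.44, Calr at -0.33, Sdf2l1 at -1.10 and Pdia3 at -0.23. Hspb2 passed the filter on low counts through the progenitor controls, so its value is no support.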

How the results depend on the processing

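No alternative turned the direction of a called member. Against 9 lower and 4 higher members in the progenitor experiment, the Y-linked covariate gave 3 lower and 1 higher, the other 9 keeping their direction with larger SE. Against 1 lower in the postmitotic experiment, DESeq2 gave 3, every gene with a count 5 and libraries 1 and 2 of each group alone 4. For these postmitotic alternatives the share of all tested genes called was not worked out. With 1 library left out, lower members numbered 6 to 9 and higher ones 2 to 5 in the progenitor experiment, lower ones 1 to 7 and higher ones 0 to 0 in the postmitotic one, and members differing between the experiments 2 to 13 (8 with all libraries). Of 254 progenitor values per member and setting, 217 stayed on their side of the threshold, 35 lost the call and 2 gained it; of 135 postmitotic values 120 stayed and 15 gained it. Same-numbered libraries did not deviate together (r from -0.442 to 0.0708 in the progenitor and from -0.21 to 0.0365 in the postmitotic experiment; 1 of 4 and 0 of 3 correlated best with their own number), so the numbers are not taken as a pairing. With the replicate number as a block, 6 members were lower and 4 higher in the progenitor experiment (Hspa1b, Dnajb1 and Atf4 lost the call), and 4 differed between the experiments. Low counts limit Hspb2, Trib3, Hspb1 and Hspb8, and 3 or 4 libraries per group limit the smaller changes.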

Other observations

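The authors' deposited progenitor table calls the same 13 members as the fit above, 9 lower and 4 higher, on the same counts. Its mean counts match those of all 8 libraries within 0.1% for 42 of 42 members. The authors' deposited postmitotic table calls 4 members lower and 0 higher: Hspa5 (log2 fold change -0.48), Pdia4 (-0.69), Pdia6 (-0.38) and Creld2 (-0.77). Hspa2 is not among them there (-0.93, DESeq2 adjusted p 0.135). The share of all genes that the authors called was not worked out. The mean counts of that table match libraries 1 and 2 of each group for 42 of 42 members and all 6 libraries for 0 of 42, so mutant 3, in which these genes stand near the controls, does not enter it.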
